A study of Mus musculus with 33 samples.

Results

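The 9 genes described here encode 5 subunits of the NMDA receptor (Grin1, Grin2a, Grin2b, Grin2d and Grin3a), 2 subunits of the calcium/calmodulin-dependent kinase CaMKII (Camk2a and Camk2b), and the postsynaptic scaffolds PSD-95 (Dlg4) and Shank3. They were taken by gene symbol from the forebrain tables, which hold 54752 genes, and all 9 were found by the same gene identifier in the hippocampus RNA tables (54752 genes) and in the ribosome footprint tables (22523 genes). Each of the 9 passed the filter on low counts in every comparison. The mice differ in n-Tr20, a neuronal arginine tRNA gene, and all were 8 weeks old. Forebrain RNA came from 20 mice in 5 groups of 4. B6J knockouts were C57BL/6J mice of genotype n-Tr20 -/-, B6N knockouts were C57BL/6NJ mice of genotype n-Tr20 -/-, B6J mice carry the hypomorphic n-Tr20 allele of C57BL/6J, B6J transgenic mice are C57BL/6J with the transgene Tg(n-Tr20), and B6N mice are C57BL/6NJ with wild-type n-Tr20. Per the design text the transgene carries the n-Tr20 of B6N; the sequence that drives it is not given in the sources used here. Hippocampus gave 6 ribosome footprint and 6 poly(A) RNA libraries, 3 from B6N knockouts and 3 from B6N mice for each assay. Their labels say C57BL/6NJ, while the headers of the RNA files and part of the protocol say B6JN. The level of the tRNA itself was not analysed here, so the genotypes rest on the labels.

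NMDA receptors are glutamate-gated ion channels that need 2 Grin1 subunits, which bind glycine, and 2 further subunits. Grin2 subunits bind glutamate and set how long the channel stays open: Grin2b predominates in the young forebrain, Grin2a is added as synapses mature, and Grin2d is found mainly in interneurons and subcortical nuclei. Grin3a binds glycine and lowers calcium entry. Calcium that enters through the channel activates CaMKII, whose main forebrain subunits come from Camk2a and Camk2b and which binds the tail of the Grin2b protein. PSD-95 anchors the receptor at the synapse, and Shank3 joins the PSD-95 complex to the actin cytoskeleton.

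Libraries held 14.7 M to 38.5 M estimated counts in forebrain, 35.8 M to 60.4 M counts in hippocampus RNA and 7.6 M to 17.9 M counts in footprints (M, 10 to the power of 6). The 16 forebrain libraries of batch 1 hold every group except the B6J knockouts, which were all in batch 2. Only transgenic mouse 4 was sequenced in both batches, so the batch difference rests on 1 mouse. Sex is not given in the labels. Xist was at 335 to 369 CPM in B6J knockouts 1 to 3 and at 0.661 to 2.04 CPM in the other forebrain libraries. In hippocampus, knockout 1 had Xist at 1242 CPM in RNA, whereas the footprint library of that number had the Y-linked Ddx3y at 45.5 CPM. All 12 excitatory neuron markers of cortex and hippocampus were detected in every group, with a summed level of 1004 to 1320 CPM in forebrain libraries. In bulk tissue, fewer cells of a type and less RNA per cell cannot be told apart. Nothing states that replicates came from separate litters, so p-values measure the spread between these samples.

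In build GRCm38.p6, Grin2b lies at chr6:135713221-136173615, Grin2d at chr7:45831883-45871194, Camk2b at chr11:5969629-6066357 and Grin1 at chr2:25291177-25319187. Promoter sequences are shown for 2 receptor subunits, Grin2d, whose level was lower in knockouts, and Grin1, the subunit that every receptor contains. They come from RefSeq, build GRCm38.p6, minus strand, chr7:45866682-45866931 for Grin2d and chr2:25319188-25319437 for Grin1, and they end 1 base before a transcript start. Capitals mark the only matches found to 4 motifs searched on both strands: the cAMP response element TGACGTCA, the E-box CACGTG, the GC box GGGCGG and the ATF4 and C/EBP composite site TGATGNAA.
Grin2d: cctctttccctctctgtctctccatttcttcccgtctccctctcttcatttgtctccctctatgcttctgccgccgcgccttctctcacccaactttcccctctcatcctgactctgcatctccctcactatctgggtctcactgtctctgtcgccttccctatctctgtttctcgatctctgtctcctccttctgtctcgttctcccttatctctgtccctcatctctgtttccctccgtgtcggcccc
Grin1: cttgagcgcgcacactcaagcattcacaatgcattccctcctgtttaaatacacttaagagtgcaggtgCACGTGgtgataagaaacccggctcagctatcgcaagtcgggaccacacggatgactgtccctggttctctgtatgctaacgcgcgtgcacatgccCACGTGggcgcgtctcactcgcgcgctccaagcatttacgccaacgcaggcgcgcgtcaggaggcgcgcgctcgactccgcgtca
The Grin2d window lies inside the gene span given above, before an internal start, and held none of the 4 motifs. The Grin1 window lies just outside the span of Grin1 and held 2 E-boxes. The 2 windows are thus not alike in position. Among 32851 promoters of the same length, 6.02% held the E-box, 32.7% the GC box, 3.45% the composite site and 1.55% the cAMP response element. Camk2b held 3 GC boxes and Shank3 held 4, in windows that also lie inside the gene spans. Of 3 Dlg4 starts the third, inside the span as well, held 1. A match of letters is a description and shows no binding.

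Levels corrected for transcript length (TPM) in the 20 forebrain mice ran over more than 2 orders of magnitude. Camk2a had the highest level of the 9, with a median of 143 TPM (109 to 172), and Camk2b followed at 73.8 TPM (62.0 to 93.3). Grin2b was at 50.2 TPM (38.7 to 62.1) and Dlg4 at 46.7 TPM (38.5 to 50.2). Grin1 was at 38.0 TPM (31.8 to 45.1) and Grin2a at 34.4 TPM (26.8 to 45.8). From Camk2b down to Grin2a, each gene's range overlapped that of the next. Shank3 at 11.2 TPM (9.56 to 13.6), Grin3a at 4.00 TPM (3.15 to 5.02) and Grin2d at 0.460 TPM (0.220 to 0.714) did not overlap with any other member. Grin2d therefore rests on few reads, 37 to 238 estimated counts per forebrain library. The remaining values are CPM unless TPM is named, that is counts scaled to the library total after TMM normalization. They were compared within a gene, except in marker sums, in the ratio of Grin2b to Grin2a and where ratios of footprints to RNA are set side by side. Neither kind of ratio is corrected for transcript length.

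In B6N mice, knockout of n-Tr20 moved 2 receptor subunits in opposite directions in forebrain. Grin2b, the subunit that binds CaMKII, rose 1.22-fold in B6N knockouts. Grin2d, the subunit of interneurons and subcortical nuclei, fell 1.44-fold. The other 7 members did not pass the test. With edgeR (quasi-likelihood test, Benjamini-Hochberg adjusted over all genes), 2 of 9 members were called, against 1.91% of the 25151 genes tested. Groups did not overlap for 3 of 9 members, against 8.6% of genes.

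Grin2b was at 1167, 1136, 1164 and 1087 CPM in the 4 B6N knockouts and at 933, 944, 921 and 930.5 CPM in the 4 B6N mice. Every knockout lay above every B6N mouse, by more than the spread within either group. The log2 difference was 0.29 ± 0.037 (SE; adjusted p = 1.38e-05, edgeR). The call held when any one of the 8 libraries was left out. Grin2d was at 3.27, 3.71, 4.01 and 3.93 CPM in B6N knockouts and at 6.30, 5.43, 5.27 and 4.69 CPM in B6N mice, again without overlap. Its log2 difference was -0.53 ± 0.11 (adjusted p = 0.00691, edgeR), and the adjusted p was 0.0504 without B6N mouse 1. Both calls ended when the fit was corrected for average transcript length, at log2 differences of 0.18 for Grin2b (adjusted p = 0.109) and -0.43 for Grin2d (adjusted p = 0.294). The mean effective length of Grin2b transcripts was 13128 ± 652 bases in B6N knockouts and 12126 ± 662 bases in B6N mice (SD, n = 4 each).

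The ratio in CPM of Grin2b to Grin2a, the 2 main forebrain subunits that bind glutamate, was also higher in forebrain of B6N knockouts. On the log2 scale it was 1.20 ± 0.023 in B6N knockouts and 0.98 ± 0.046 in B6N mice (SD, n = 4 each), and the ranges, 1.18 to 1.23 in B6N knockouts and 0.93 to 1.03 in B6N mice, did not overlap. The ratio was 1.00 ± 0.088 in B6J knockouts, 1.09 ± 0.038 in B6J mice and 0.98 ± 0.052 in transgenic mice. In hippocampus the genotypes overlapped, with 1.02 to 1.17 in B6N knockouts and 0.83 to 1.17 in B6N mice in footprints, and 1.39 to 1.47 in B6N knockouts and 1.22 to 1.42 in B6N mice in RNA. CPM are not corrected for transcript length, and in TPM the forebrain ratios of the 2 genotypes overlapped. B6N mouse 1 (Grin2b 51.8 TPM, Grin2a 33.7 TPM) had a higher ratio than B6N knockout 2 (51.6 and 34.5 TPM). In CPM, Grin2a itself was at 496 ± 10.7 CPM in B6N knockouts and 472 ± 11.8 CPM in B6N mice. Grin1 was at 293 ± 11.6 CPM in B6N knockouts and 295 ± 6.48 CPM in B6N mice, and Grin3a at 47.5 ± 1.90 CPM in B6N knockouts and 48.6 ± 3.65 CPM in B6N mice (SD, n = 4 each). Their log2 differences were 0.066 ± 0.046 for Grin2a, -0.01 ± 0.048 for Grin1 and -0.036 ± 0.057 for Grin3a. None of the 3 passed the test, and their groups overlapped.

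CaMKII subunits and scaffolds were not called in this comparison. Camk2b was at 492, 517, 501 and 526 CPM in B6N knockouts and at 529.8, 545, 557 and 545 CPM in B6N mice. The groups did not overlap, but the log2 difference of -0.10 ± 0.038 had an adjusted p of 0.23 (edgeR). Camk2a averaged 1084 ± 43.3 CPM in B6N knockouts and 1144 ± 20.9 CPM in B6N mice, a log2 difference of -0.08 ± 0.066. The log2 differences of the scaffolds were 0.072 ± 0.038 for Dlg4 and 0.027 ± 0.048 for Shank3. Dlg4 averaged 274 ± 7.80 CPM in B6N knockouts and 259.9 ± 5.93 CPM in B6N mice, and Shank3 89.3 ± 2.48 CPM in B6N knockouts and 87.5 ± 4.06 CPM in B6N mice (SD, n = 4 each).

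**Figure D1:**
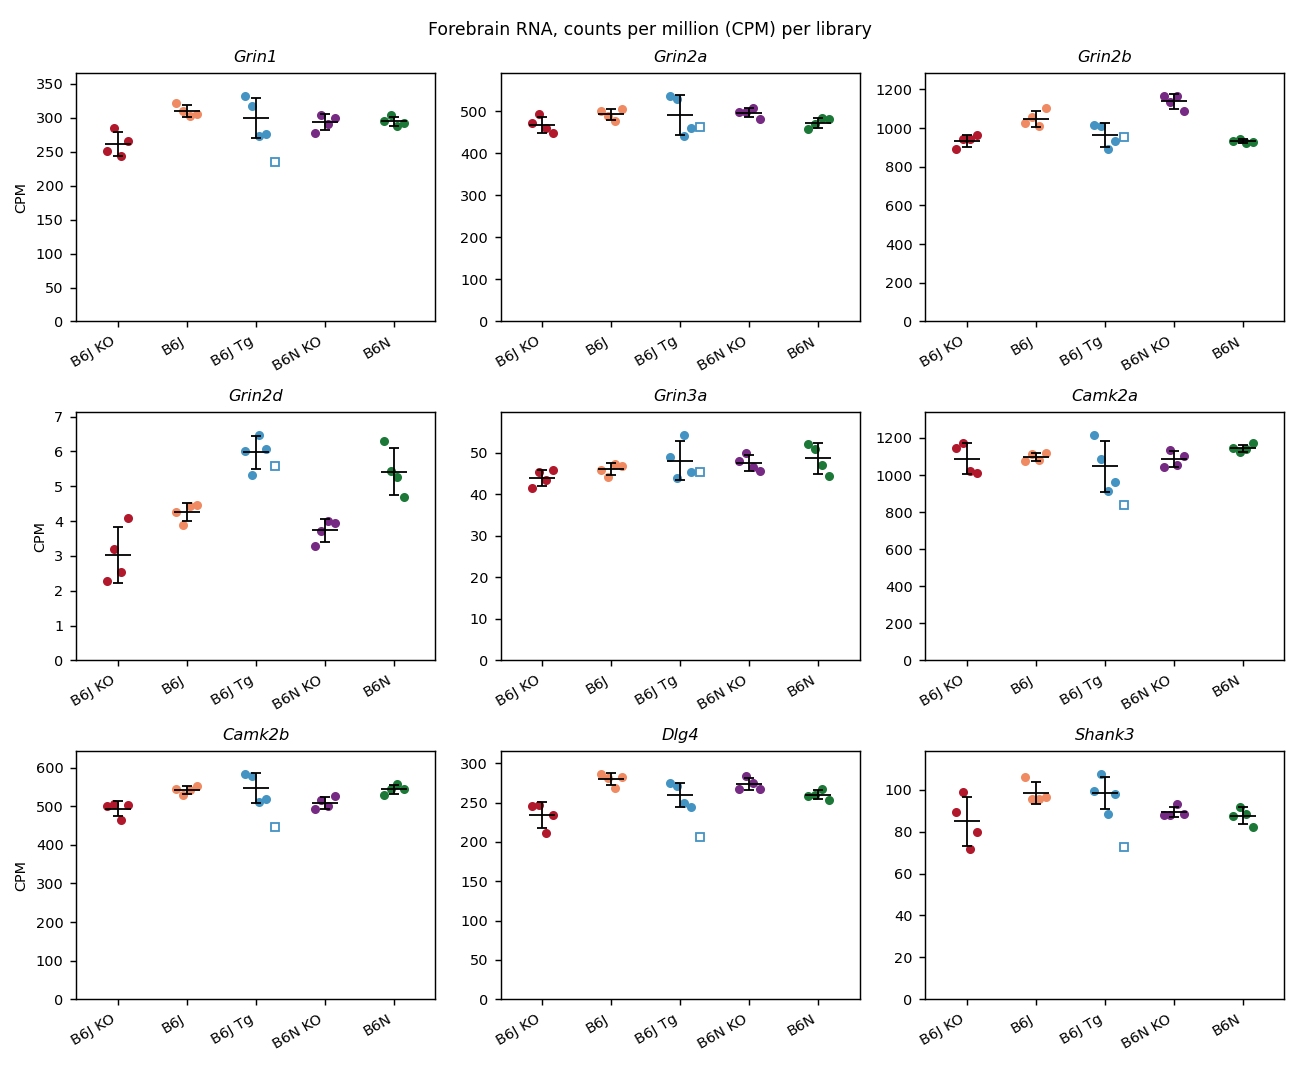
CPM of each of the 9 genes (vertical axis, from 0) in every forebrain library, by group. Filled points are libraries, horizontal marks and bars are the mean and SD of 4 mice, and the open square is the batch 2 library of transgenic mouse 4. Grin2b in B6N knockouts (1087 to 1167 CPM) lies above B6N mice (921 to 944 CPM), and Grin2d lies below.

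In B6J mice, which keep a hypomorphic n-Tr20, Grin2b was higher than in B6N mice, while no member passed the test against the transgenic mice. B6J and B6N mice differ in strain as well as in n-Tr20, and the 2 cannot be told apart in this comparison. Against B6N mice, Grin2b rose 1.13-fold in B6J mice (log2 difference 0.17 ± 0.037, adjusted p = 0.01, edgeR), the only call among 9 members, with 1.73% of 25151 genes called. The 4 B6J mice were at 1026, 1057, 1008 and 1104 CPM, above all B6N mice. The adjusted p was 0.0685 without B6J mouse 4 and 0.202 with the length correction. Groups did not overlap for 5 of 9 members, against 9.08% of genes: Grin2b, Dlg4 and Shank3 lay above B6N mice, and Grin2d and Camk2a below. Shank3 was at 106, 95.5, 95.7 and 96.5 CPM in B6J mice and 87.5, 91.7, 88.6 and 82.0 CPM in B6N mice, with a log2 difference of 0.17 ± 0.048 (adjusted p = 0.0575, edgeR). With only these 2 groups in the fit, 3 members were called, all higher in B6J mice. That fit called 989 of 24022 genes, 683 of them higher. The log2 differences of the others were -0.34 ± 0.11 for Grin2d, -0.058 ± 0.066 for Camk2a, 0.11 ± 0.038 for Dlg4, 0.074 ± 0.048 for Grin1, 0.061 ± 0.046 for Grin2a, -0.077 ± 0.058 for Grin3a and -0.0034 ± 0.038 for Camk2b.

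Set against transgenic mice of the same strain, B6J mice had Grin2d at 4.27, 3.88, 4.43 and 4.47 CPM, and the transgenic mice had 6.00, 5.32, 6.48 and 6.07 CPM. All 4 B6J mice lay below all 4 transgenic mice. The log2 difference was -0.49 ± 0.12, with an adjusted p of 0.0588 (edgeR) and of 0.0485 by DESeq2. By edgeR 0 of 9 members were called, with 0.25% of genes called, and by DESeq2 1, with 157 of 25151 genes called. At an unadjusted p under 0.05 there were 3 of 9, Grin2d, Dlg4 and Grin2b, against 10.3% of genes. Grin2d was the 1 member of 9 without overlap, against 5.04% of genes. Grin2b was at 1018, 1010.4, 893 and 933 CPM in the transgenic mice, a range that overlapped that of B6J mice, with a log2 difference of 0.12 ± 0.037 (adjusted p = 0.182, edgeR). The log2 difference of Dlg4 was 0.11 ± 0.038, and those of the other members, all with an unadjusted p over 0.05, were 0.07 ± 0.066 for Camk2a, 0.05 ± 0.048 for Grin1, 0.0045 ± 0.046 for Grin2a, 0.0027 ± 0.048 for Shank3, -0.014 ± 0.038 for Camk2b and -0.066 ± 0.058 for Grin3a.

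Between transgenic and B6N mice, no member was called by edgeR or DESeq2, against 0.366% of genes by edgeR, and 1 of 9, Shank3, had an unadjusted p under 0.05, against 8.87% of genes. Shank3 was at 99.3, 108, 88.6 and 98.0 CPM in transgenic mice, a log2 difference of 0.17 ± 0.048 (adjusted p = 0.151, edgeR). Grin2d differed by 0.15 ± 0.11 and Grin2b by 0.049 ± 0.037 on the log2 scale. The log2 differences were -0.13 ± 0.066 for Camk2a, 0.011 ± 0.038 for Camk2b, 0.0012 ± 0.038 for Dlg4, 0.025 ± 0.048 for Grin1, 0.056 ± 0.046 for Grin2a and -0.01 ± 0.057 for Grin3a. Whether knockout of n-Tr20 in B6N and the hypomorph in B6J differ in effect was tested as a difference of the 2 log2 differences. No member was called (0.0596% of genes; DESeq2 also 0). Grin2b alone had an unadjusted p under 0.05, against 8.2% of genes, with a difference of 0.16 ± 0.053 (adjusted p = 0.334, edgeR). For Grin2d the 2 effects differed by -0.038 ± 0.16. The differences of effects were -0.15 ± 0.094 for Camk2a, -0.085 ± 0.054 for Camk2b, -0.06 ± 0.068 for Grin1, -0.035 ± 0.054 for Dlg4, 0.024 ± 0.068 for Shank3, 0.03 ± 0.081 for Grin3a and 0.062 ± 0.065 for Grin2a.

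B6J knockouts were compared in a fit of all 21 libraries with a batch term. Grin2d was at 2.27, 3.19, 2.53 and 4.09 CPM in B6J knockouts, 4.27, 3.88, 4.43 and 4.47 CPM in B6J mice and 6.00, 5.32, 6.48 and 6.07 CPM in transgenic mice. B6J knockouts lay below all transgenic mice, and knockout 4 overlapped the B6J mice. Against transgenic mice the log2 difference was -0.87 ± 0.24 (adjusted p = 0.0817, edgeR), and it was -1.06 (adjusted p = 0.0205) without B6J knockout 4. Without transgenic mouse 2 the adjusted p was 0.0473, and with the repeat library counted as a separate sample it was 0.00228. The 2 libraries of transgenic mouse 4 had Grin2d at 5.59 CPM in batch 2 and 6.07 CPM in batch 1. By edgeR 0 of 9 members were called against transgenic mice, with 0.738% of 25481 genes called. DESeq2 also called 0, giving Grin2d no adjusted p. Only Grin2d had an unadjusted p under 0.05, against 11.6% of genes. With the male knockout 4 as the only B6J knockout, 0 members were called by edgeR and the log2 difference of Grin2d was -0.43. Summed interneuron markers were at 505 to 543 CPM in B6J knockouts and 603 to 641 CPM in transgenic mice. Choroid plexus markers were at 808 to 1068 CPM in B6J knockouts and 212 to 286 CPM in transgenic mice. Oligodendrocyte markers were at 2831 to 3554 CPM in B6J knockouts and 3464 to 4069 CPM in transgenic mice. These sums are uncorrected for batch. With the batch term, 6 of 12 oligodendrocyte markers had an unadjusted p under 0.05, and their median log2 difference was -0.37. The part of these 3 cell types in the Grin2d difference was not tested.

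Uncorrected for batch, 2 of 9 members, Grin2d and Camk2b, did not overlap between B6J knockouts and transgenic mice, against 15.6% of genes. For Camk2b, B6J knockouts were at 502, 505, 465 and 504 CPM and transgenic mice at 585, 578, 510.4 and 519 CPM, but the batch 2 library of transgenic mouse 4 was at 447 CPM and its batch 1 library at 519 CPM. With the batch term the log2 difference was 0.064 ± 0.079. Shank3 moved most between the libraries of that mouse, at 72.8 CPM in batch 2 and 98.0 CPM in batch 1. Camk2a differed by 0.25 ± 0.13 and Shank3 by 0.22 ± 0.15 on the log2 scale, neither called. The log2 differences were 0.10 ± 0.085 for Dlg4, 0.035 ± 0.10 for Grin1, -0.077 ± 0.088 for Grin2a and -0.14 ± 0.11 for Grin3a.

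Against B6J mice no member was called in B6J knockouts by edgeR or DESeq2, with 0.106% of genes called by edgeR. One, Grin2b, had an unadjusted p under 0.05, against 8.02% of genes. Grin2b was at 892, 942, 942 and 965 CPM in B6J knockouts and 1026, 1057, 1008 and 1104 CPM in B6J mice, and the groups did not overlap. The log2 difference was -0.19 ± 0.085 (adjusted p = 0.541, edgeR). Of 9 members 4 did not overlap, Grin2b, Dlg4, Grin1 and Camk2b, all lower in B6J knockouts and uncorrected for batch, against 15.6% of genes. In transgenic mouse 4, the log2 difference of batch 2 from batch 1 was -0.25 for Dlg4, -0.23 for Grin1, -0.21 for Camk2b and 0.030 for Grin2b. With the batch term, the log2 differences were -0.38 ± 0.28 for Grin2d, 0.22 ± 0.17 for Shank3, 0.18 ± 0.15 for Camk2a, 0.078 ± 0.088 for Camk2b, -0.0057 ± 0.10 for Dlg4, -0.016 ± 0.11 for Grin1, -0.082 ± 0.10 for Grin2a and -0.073 ± 0.12 for Grin3a. In B6J knockouts against transgenic mice, Grin2b differed by -0.073 ± 0.076 on the log2 scale. Tested directly, this effect and that of knockout in B6N differed by -0.36 ± 0.085 (adjusted p = 0.0613, edgeR). DESeq2 gave an adjusted p of 0.0105, and edgeR called 0 of 9 members, with 0.243% of genes called. Grin2b and Camk2a had unadjusted p under 0.05, against 10.1% of genes. The differences of effects were 0.33 ± 0.15 for Camk2a, -0.35 ± 0.28 for Grin2d, 0.19 ± 0.17 for Shank3, 0.16 ± 0.088 for Camk2b, -0.15 ± 0.10 for Grin2a, -0.10 ± 0.12 for Grin3a, 0.042 ± 0.11 for Grin1 and 0.027 ± 0.10 for Dlg4. Batch 2 holds all 4 B6J knockouts, 3 of them with the high Xist of females, and the part of sex in this was not tested.

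**Figure D2:**
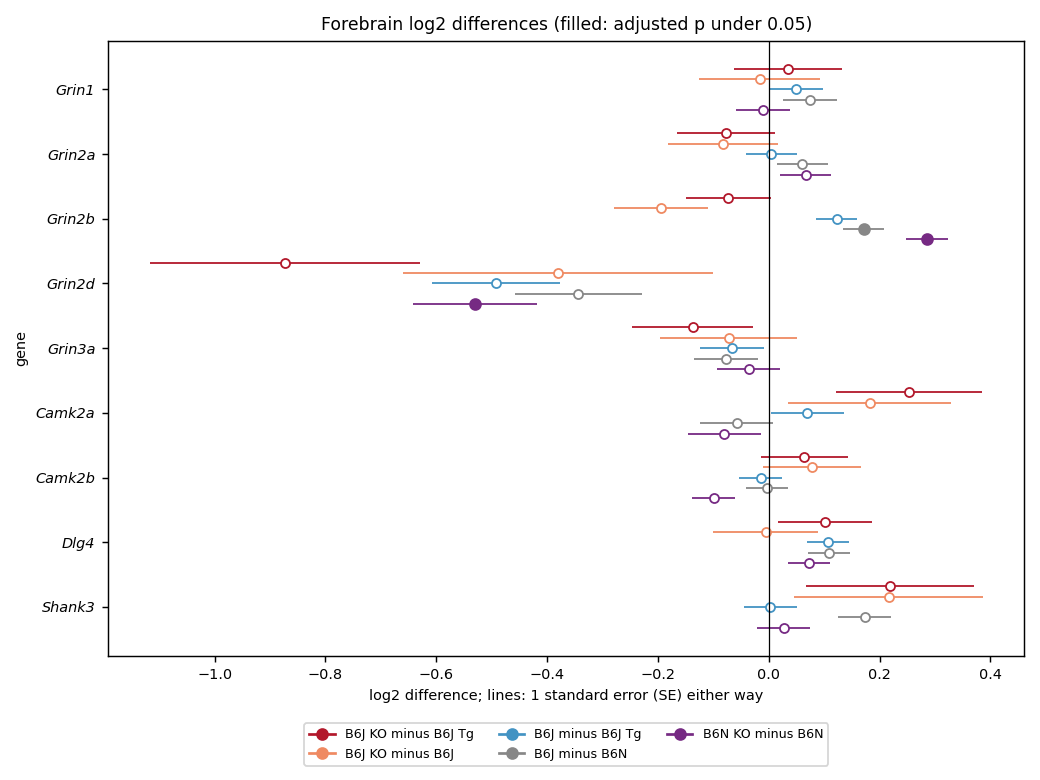
Log2 differences of the 9 genes in 5 forebrain comparisons (horizontal axis), with lines of 1 SE either way; filled points have an adjusted p under 0.05. Grin2b is called in B6N knockouts against B6N (0.29) and in B6J against B6N (0.17), and Grin2d lies below 0 in the 5 comparisons drawn: B6J knockouts against transgenic and against B6J, B6J against transgenic and against B6N, and B6N knockouts against B6N. Transgenic against B6N, where Grin2d was at 0.15, is not drawn.

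Other genes of the pathway were counted from lists of 21 tested NMDA receptor partners, 27 CaMKII and calcium genes, and 32 postsynaptic density genes. In B6N knockouts against B6N mice, 1 partner fell, 1 calcium gene rose and 1 fell, and 1 density gene fell, where 1.11% of all genes tested rose and 0.807% fell. Camk2g, a further CaMKII subunit, fell 1.16-fold, averaging 154 ± 7.93 CPM in B6N knockouts and 178 ± 3.18 CPM in B6N mice (adjusted p = 0.00275, edgeR). Ppp3r1, the regulatory subunit of the phosphatase calcineurin, rose 1.11-fold to 443 ± 4.19 CPM in B6N knockouts, against 399 ± 12.6 CPM in B6N mice. Lin7b, an adaptor that binds receptor complexes, fell 1.20-fold, and Lrrtm2, a synaptic adhesion protein that binds PSD-95, fell 1.15-fold. The median log2 difference of the 3 lists was 0.030, 0.014 and 0.019, and that of all genes -0.0014.

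Between B6J and B6N mice, 1 receptor partner and 3 density genes rose and 0 fell, where 1.21% of all genes rose and 0.513% fell. They were Ntng2 (1.21-fold), a netrin-G adhesion protein, and the scaffolds Sipa1l2 (1.18-fold), Dlgap4 (1.15-fold) and Shank2 (1.16-fold). Of 27 calcium genes 0 passed the test, with 4 at an unadjusted p under 0.05, a share near the 12.8% of all genes. In the fit with a batch term, Camkk1, a kinase that activates other CaM kinases, rose 1.30-fold in B6J knockouts against transgenic mice (log2 difference 0.38 ± 0.08, adjusted p = 0.0158, edgeR). The batch term rests on transgenic mouse 4 alone, and the CPM means, uncorrected for batch, lay closer together. The Camkk1 call ended with only these 2 groups in the fit (adjusted p = 0.187) and with the length correction (0.304). No list gene was called between B6J and transgenic mice, transgenic and B6N mice, or B6J knockouts and B6J mice by edgeR.

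Markers of other cell types moved in some of these comparisons. Between B6J mice (592 to 654 CPM) and transgenic mice (603 to 641 CPM) the summed interneuron markers overlapped. Of these 12 markers 0 passed the test and 3 had an unadjusted p under 0.05, against 10.3% of genes. Their median log2 difference was -0.044, and the part of interneurons in the Grin2d difference was not tested. In that comparison 0 of 10 thalamus markers passed the test, but 3 had an unadjusted p under 0.05 and their median log2 difference was -0.50; the median of 10 hippocampus markers was -0.32, with 4 at an unadjusted p under 0.05. Summed thalamus markers were at 220 to 318 CPM in B6J mice and 224 to 413 CPM in transgenic mice, and their part in the Grin2d difference was not tested. Of 12 interneuron markers, 3 fell in B6N knockouts against B6N mice: Htr3a (1.80-fold), Ndnf (1.29-fold) and Gad1 (1.14-fold). Their summed level was 498 to 516 CPM in B6N knockouts and 522 to 586 CPM in B6N mice, and none of the 12 was at 0. Grin2d fell in the same comparison, and the part of interneurons in that was not tested. Of 16 striatal markers 4 rose in B6J against B6N mice, with summed levels of 1343 to 1502 CPM in B6J mice and 1157 to 1248 CPM in B6N mice. Grin2b and the scaffolds named rose there too, and the part of striatal tissue was not tested. Of 12 interneuron markers 2 also rose in B6J mice, Slc32a1 and Dlx1, with 7 at an unadjusted p under 0.05 and a median log2 difference of 0.15, while Grin2d was lower in all 4 B6J mice. Of 12 excitatory neuron markers 1 rose, Lamp5, with 5 at an unadjusted p under 0.05, against 12.8% of genes. In transgenic against B6N mice, 8 of 16 striatal markers had an unadjusted p under 0.05 (median log2 difference 0.19), with Pdyn called higher. So did 7 of 12 interneuron markers (0.14), with Gad1 and Sst called higher, and 8 of 12 oligodendrocyte markers (0.18), against 8.87% of genes. The part of these cell types was not tested there either.

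The share of each gene's TPM held by its annotated transcripts was described for 40 transcripts of 8 members, leaving out Grin2d at under 1 TPM. In B6N knockouts against B6N mice, 7 of 40 did not overlap, against 3.58% of 45446 transcripts. The share of Grin1-207 was 15.7% ± 2.89 in B6N knockouts and 9.15% ± 1.66 in B6N mice, and that of Grin1-201 was 20.8% ± 1.40 in B6N knockouts and 16.4% ± 1.32 in B6N mice. Grin1-205 had the opposite pattern, with 5.80% ± 1.45 in B6N knockouts and 11.1% ± 0.55 in B6N mice (SD, n = 4 each). Dlg4-216, Grin2b-203, Grin2b-205 and Shank3-207 also had lower shares in every B6N knockout. Between B6J and transgenic mice 1 of 40 did not overlap (Shank3-201, higher in B6J mice), against 3.27%, and between B6J and B6N mice 3 of 40 (Dlg4-216, Grin1-205 and Grin2a-206, all lower in B6J mice), against 3.45%. Transcripts of 1 gene share most of their sequence, and these estimates carry no test.

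Genes most like each member were found by Pearson's r of log2(CPM + 0.5) over the 16 batch 1 forebrain libraries, which share a batch and 4 groups. For Grin2b these were Dnmt1 (r = 0.94), 1110002E22Rik (0.93) and Zc3h13 (0.92), and for Grin2d they were Upp2 (0.93), Tmsb10 (0.93) and Optn (0.91). Camk2a was most like Slc17a7, the vesicular glutamate transporter of cortical excitatory neurons (0.94), Strn4 (0.92) and Sidt1 (0.92). Camk2b was most like Kif1a (0.94), Matk (0.94) and Ggt7 (0.92), and Dlg4 most like Slc6a17 (0.94), Larp1 (0.93) and Ubqln4 (0.92). Shank3 went with Kcnc1 (0.94), Cacna1a (0.91) and Ogdh (0.90), and Grin1 with Srebf2 (0.94), Arid1b (0.93) and Kcnj11 (0.93). Grin2a went with Adra1d (0.93), Arhgef2 (0.89) and Khsrp (0.89), and Grin3a, with the lowest values, with Tomm5 (0.90), Ndufa13 (0.86) and Rpl36al (0.81).

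In hippocampus RNA, Grin2b and Grin2d were the 2 members whose groups did not overlap, in the same directions as in forebrain, and neither passed the test. Grin2d was at 14.4, 12.2 and 11.6 CPM in B6N knockouts and 19.9, 22.6 and 17.2 CPM in B6N mice, a log2 difference of -0.65 ± 0.12 (adjusted p = 0.202 by edgeR and 0.00126 by DESeq2). Grin2b was at 946, 984 and 932 CPM in B6N knockouts and 858, 747 and 856 CPM in B6N mice, a log2 difference of 0.22 ± 0.078 (adjusted p = 0.52, edgeR). By edgeR 0 of 9 members were called, with 0.0413% of 19352 genes called. DESeq2 called 1, Grin2d, with 138 of 19352 genes called. Grin2b and Grin2d had unadjusted p under 0.05, 2 of 9 members against 7.93% of genes, and 2 of 9 without overlap compares with 14.4% of genes. The log2 differences of the other 7 members were -0.24 ± 0.22 for Grin3a, -0.10 ± 0.078 for Shank3, -0.013 ± 0.082 for Grin1, 0.048 ± 0.081 for Dlg4, 0.067 ± 0.10 for Camk2a, 0.086 ± 0.071 for Grin2a and 0.092 ± 0.11 for Camk2b. Summed interneuron markers were at 654 to 714 CPM in B6N knockouts and 831 to 914 CPM in B6N mice, with none at 0. Of these 12 markers 7 had an unadjusted p under 0.05, and their median log2 difference was -0.33. Ndnf was called lower (log2 difference -0.89 ± 0.087, adjusted p = 0.0101, edgeR). The median log2 difference of 10 thalamus markers was -1.004, with 0 at an unadjusted p under 0.05, and their sums were 153 to 173 CPM in B6N knockouts and 176 to 498 CPM in B6N mice. That of 12 oligodendrocyte markers was -0.38, with 10 at an unadjusted p under 0.05 and sums of 5010 to 6132 CPM in B6N knockouts and 5995 to 8266 CPM in B6N mice. The part of these cell types in the Grin2d difference was not tested. The RNA libraries do not mark strand, so reads of Grin1 and its antisense RNA Grin1os, or of Shank3 and Gm15609 within it, cannot be told apart.

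**Figure D3:**
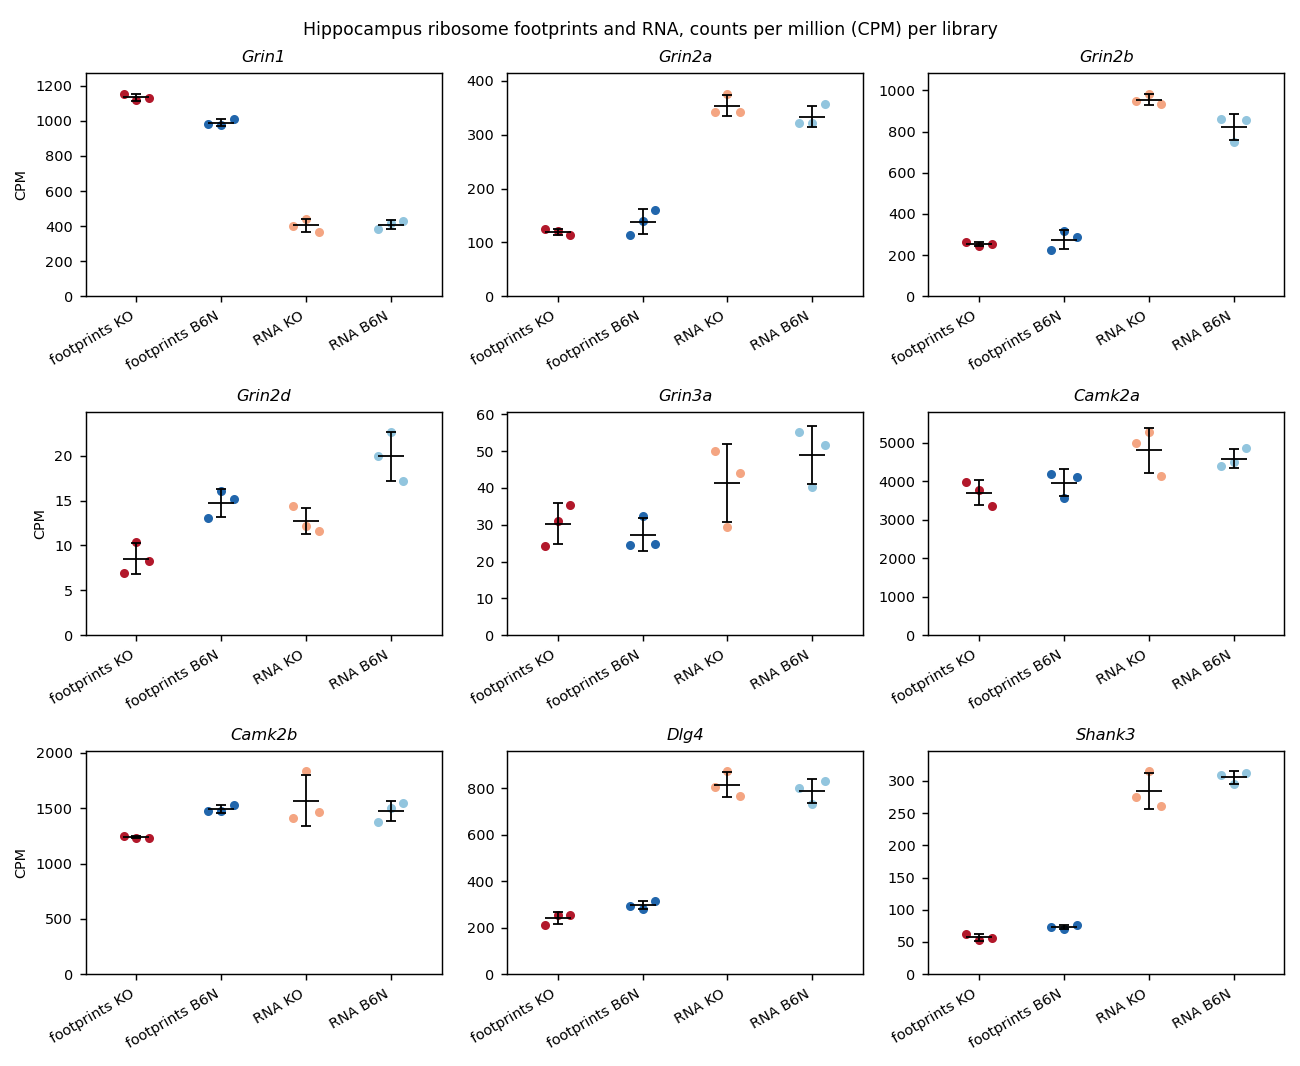
CPM of each of the 9 genes (vertical axis, from 0) in every hippocampus library, footprints and RNA of B6N knockouts (KO) and B6N mice. Points are libraries, and marks and bars are the mean and SD of 3. Grin2d footprints in B6N knockouts (6.90 to 10.4 CPM) lie below those in B6N mice (13.01 to 16.1 CPM), as do those of Camk2b.

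Ribosome footprints, the fragments of mRNA that ribosomes protect while they translate, were lower for 2 members in B6N knockouts. Grin2d fell 1.76-fold and Camk2b fell 1.21-fold. Of 9 members these 2 were called, both lower, with 5.35% of 13227 genes called by edgeR. For 5 of 9 members the groups did not overlap, against 26.7% of genes. Camk2b was at 1249.6, 1229 and 1235 CPM in B6N knockouts and 1472, 1478 and 1533 CPM in B6N mice. The gap was larger than the spread in either group, with a log2 difference of -0.27 ± 0.06 (adjusted p = 0.0232, edgeR). Grin2d was at 6.90, 10.4 and 8.29 CPM in B6N knockouts and 13.01, 16.1 and 15.2 CPM in B6N mice, a log2 difference of -0.81 ± 0.20 (adjusted p = 0.0331, edgeR).

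Scaffold footprints were lower and Grin1 footprints higher in every B6N knockout library without passing the test by edgeR. Dlg4 was at 212, 254 and 257 CPM in B6N knockouts and 295, 279 and 315 CPM in B6N mice (log2 difference -0.30 ± 0.088, adjusted p = 0.0616). Shank3 was at 62.5, 53.0 and 55.9 CPM in B6N knockouts and 72.6, 69.7 and 76.4 CPM in B6N mice (log2 difference -0.35 ± 0.10, adjusted p = 0.0599). Grin1 was at 1155, 1117 and 1127 CPM in B6N knockouts and 979, 976 and 1012 CPM in B6N mice (log2 difference 0.20 ± 0.061, adjusted p = 0.0775). DESeq2 called all 5, Grin1 higher and 4 lower, with 1080 of 13227 genes called. Camk2a, Grin2a, Grin2b and Grin3a overlapped between groups. For Grin2b, B6N knockouts had 262, 246 and 256 CPM in footprints, and B6N mice had 224, 315 and 286 CPM (log2 difference -0.11 ± 0.11). The log2 differences were -0.10 ± 0.078 for Camk2a, -0.21 ± 0.11 for Grin2a and 0.14 ± 0.16 for Grin3a.

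The 2 footprint calls depended on single libraries. Grin2d stayed called in 1 of 6 fits that left out a library, with log2 differences from -0.97 to -0.66, and Camk2b in 2 of 6, from -0.28 to -0.25. Without knockout 1 neither was called, at adjusted p = 0.0837 for Grin2d and 0.0508 for Camk2b. Grin2d ended without knockout 2 (0.0615), knockout 3 (0.0577), B6N 2 (0.127) or B6N 3 (0.158), and Camk2b without knockout 2 (0.106), B6N 2 (0.0712) or B6N 3 (0.123).

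Marker genes moved in the same footprint comparison. Of 15 tested striatal markers 7 rose in B6N knockouts, with a summed level of 424 to 663 CPM in B6N knockouts and 363 to 406 CPM in B6N mice. Of 12 excitatory neuron markers 3 fell, with 2071 to 2226 CPM in B6N knockouts and 2538 to 2683 CPM in B6N mice. Of 11 tested interneuron markers 3 fell, and their sums were 1339 to 1508 CPM in B6N knockouts and 1527 to 1698 CPM in B6N mice. Choroid plexus markers summed to 11191 to 26125 CPM in B6N knockouts and 7863 to 16941 CPM in B6N mice. Of 9 microglia markers 4 fell, as did 2 of 12 oligodendrocyte and 2 of 10 astrocyte markers. The part of tissue composition in the footprint differences was not tested.

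In footprints the CaMKII and calcium list had 3 of 26 tested genes lower and 1 higher, and the density list 2 of 32 lower and 1 higher, where 3.16% of all genes fell and 2.19% rose. Of 20 receptor partners 0 passed the test by edgeR, with 8 at an unadjusted p under 0.05, against 22% of all genes. Camk2n1, an inhibitor protein of CaMKII, fell 1.74-fold to 117 ± 5.28 CPM in B6N knockouts, against 204 ± 21.7 CPM in B6N mice (SD, n = 3 each; adjusted p = 0.00109, edgeR). Its relative Camk2n2 fell 1.86-fold, and Nrgn, neurogranin, which binds calmodulin, fell 1.54-fold. Dlgap3, which links PSD-95 to Shank proteins, fell 1.49-fold, and Begain, a PSD-95 binding protein, fell 1.44-fold. Ppp1r9a, neurabin, an actin-binding protein of spines, rose 1.32-fold, and the scaffold Tanc2 rose 1.26-fold. In hippocampus RNA none of the list genes was called by edgeR; unadjusted p under 0.05 was found for 1 partner, 2 calcium genes and 1 density gene.

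In B6N mice, the ratio of footprints to RNA varied widely among the 9 genes. Both are shares of their own library, and the assays differ in kit and counting, so the ratio is relative to other genes. Grin1 had 2.68-fold more footprint than RNA signal (log2 difference 1.42 ± 0.078), at 989 ± 20.1 CPM in footprints and 409 ± 23.7 CPM in RNA (SD, n = 3 each). Shank3 had 3.77-fold less (-1.92 ± 0.087), at 72.9 ± 3.38 CPM in footprints and 305 ± 9.46 CPM in RNA. Grin2b had 2.69-fold less, Dlg4 2.40-fold less, Grin2a 2.17-fold less and Grin3a 1.62-fold less. These 6 of 9 were called by edgeR, against 70.7% of 15202 genes, a share near that of the members. Camk2a (-0.062 ± 0.10), Camk2b (0.17 ± 0.093) and Grin2d (-0.28 ± 0.16) were not called. Among receptor subunits, Grin1 lay above 0 and Grin2a, Grin2b and Grin3a lay below. The ratio is not corrected for transcript length or for the untranslated part of a transcript. The transcript with the largest forebrain share had 3882 bases for Grin1, 14634 for Grin2a, 24060 for Grin2b and 7431 for Grin3a. The part of length in these ratios was not tested. Of all genes tested, 33.8% were called higher in footprints and 36.9% lower. Of the pathway lists, 8 of 21 receptor partners were called higher and 7 lower, shares near those of all genes. Of 27 calcium genes 12 were called higher and 9 lower, and of 32 density genes 7 higher and 17 lower. The partners with the smallest adjusted p were Lin7b (2.01 ± 0.11), Srr, which makes the receptor's co-agonist D-serine (1.07 ± 0.073), the subunit Grin2c (-1.57 ± 0.14), the phosphatase Ptpn5 (-0.77 ± 0.082), Pgrmc1 (0.87 ± 0.11) and the auxiliary protein Neto1 (-1.05 ± 0.13), as log2 differences. The calcium genes were spinophilin Ppp1r9b (-2.21 ± 0.12), the kinases Camk4 (1.47 ± 0.095) and Camkk2 (-1.17 ± 0.076), Phf24 (-1.40 ± 0.091), Camk2n1 (-1.37 ± 0.10) and the calmodulin-binding Pcp4 (-5.13 ± 0.38). The density genes were the scaffolds Shank1 (-2.54 ± 0.083), Homer2 (-2.63 ± 0.10), Dlgap3 (-2.06 ± 0.094) and Shank2 (-1.63 ± 0.10), and the adhesion proteins Nlgn3 (1.76 ± 0.08) and Nlgn2 (-1.22 ± 0.088).

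Translational efficiency, footprints relative to RNA, was compared between B6N knockouts and B6N mice as the interaction of assay and genotype. No member passed the test by edgeR or DESeq2, and edgeR called 0% of 15202 genes, with 2251 at an unadjusted p under 0.05, while DESeq2 called 494. Unadjusted p under 0.05 was found for 5 of 9 members, all lower in B6N knockouts, against 14.8% of genes. They were Camk2b (-0.39 ± 0.13), Dlg4 (-0.38 ± 0.12), Grin2b (-0.36 ± 0.14), Grin2a (-0.32 ± 0.14) and Shank3 (-0.27 ± 0.12), with adjusted p of 0.178 to 0.315. Grin1 (0.18 ± 0.11) and Grin3a (0.36 ± 0.28) were above 0, and Camk2a (-0.19 ± 0.15) and Grin2d (-0.20 ± 0.23) below. The number with an unadjusted p under 0.05 was 2 without RNA library 2 of B6N mice, 3 without RNA library 1 or footprint library 3 of B6N mice, and 4 to 6 without any other library. In 11 of the 12 such fits 0 members were called by edgeR. Without footprint library 1 of B6N mice, Grin2a (adjusted p = 0.0498) and Grin2b (0.0278) were called by edgeR, both lower. That fit called 301 of 15667 genes. Of the pathway lists 0 genes were called, with 4 of 21 partners, 6 of 27 calcium genes and 7 of 32 density genes at an unadjusted p under 0.05. The members' median was -0.27 and that of all genes -0.025. Marker medians were -0.24 for excitatory neurons, -0.35 for hippocampus, 0.77 for striatum, 0.83 for thalamus and 0.46 for oligodendrocytes. Of 16 striatal markers 8 had an unadjusted p under 0.05, and of 12 excitatory neuron markers 3. The part of tissue composition in these differences was not tested. RNA and footprint libraries of the same number are not shown to come from the same mouse. For Grin2b, the RNA log2 difference of 0.22 and the footprint log2 difference of -0.11 had opposite signs. For Grin2d both were below 0, at -0.65 in RNA and -0.81 in footprints.

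**Figure D4:**
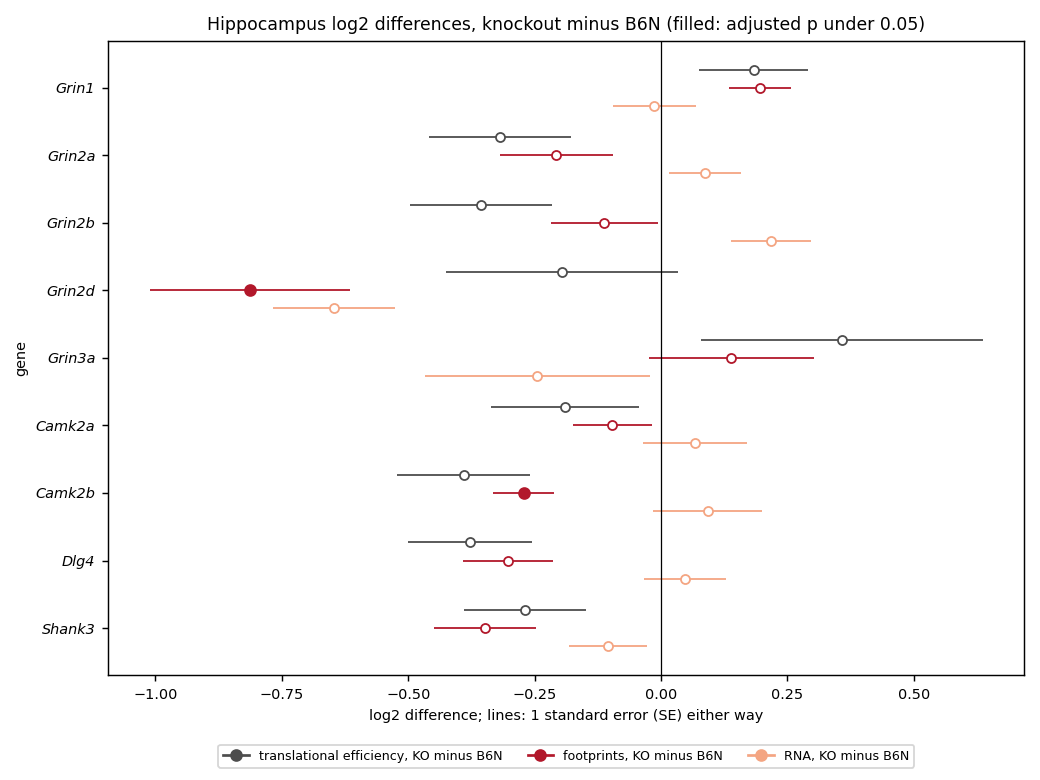
Log2 differences, B6N knockouts minus B6N mice, of the 9 genes in translational efficiency, footprints and RNA of hippocampus (horizontal axis), with lines of 1 SE either way; filled points have an adjusted p under 0.05. Camk2b (-0.27) and Grin2d (-0.81) are called in footprints, and 7 of 9 genes lie below 0 in translational efficiency.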

How the data were processed

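Forebrain values are the estimated counts and TPM that the authors deposited per transcript; estimated counts were summed per gene and rounded. Hippocampus values are the counts per gene the authors deposited. Bowtie2 2.2.3, HISAT2 2.1.0, featureCounts, kallisto 0.42.4 and build mm10 are named, with no role, per the submitters' processing notes. Per the labels' protocols, forebrain libraries were stranded and depleted of ribosomal RNA, and hippocampus RNA was poly(A)-selected.

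Tests used edgeR 4.0.16 in R 4.3.3 across all genes (quasi-likelihood, TMM, filterByExpr with a minimum count of 10), two-sided, adjusted by Benjamini-Hochberg over all genes tested and called at an adjusted p under 0.05. Comparisons of batch 1 groups share a fit of 16 libraries, so comparisons that use the same group are not independent. B6J knockouts were compared in a fit of all 21 libraries with batch as a term, in which the twice-sequenced transgenic mouse was modelled by its own term and weighed as 1 of the 4 in its group. Translational efficiency was fitted over 12 hippocampus libraries. The edgeR code was tested on simulated counts with known changes, for 1 comparison of each fit, and the other steps were not. Library depth sets the precision, least for Grin2d.

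The members, lists and markers were chosen with earlier results of these data known. All 9 members are named in each comparison, as are up to 6 called genes of each pathway list, the 3 genes most like each member and transcripts with at least 5% of a gene's TPM. Single libraries named in the text were chosen after their values were seen. Alternatives were DESeq2 1.42.0, its size factors, no low-count filter, a transcript length correction, the compared groups alone, a replicate block and each library left out.

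Replicate numbers of the labels did not pair the samples in comparisons of genotype. For footprints and RNA of B6N mice, deviations of libraries with the same number correlated at 0.16, 0.11 and 0.11; with the replicate block the same number of members, 6, was called.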

Additional observations from a re-analysis of the deposited data

Results flagged for a closer look

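Among 45 groups of 4 forebrain mice (9 genes in 5 groups), 3 had a library that stood apart from the other 3 by Dixon's test at its 95% critical value, where chance gives about 1 in 20. Camk2b in B6J knockout 3 was at 464.7 CPM, with the other B6J knockouts at 502 to 505 CPM. Shank3 in B6J mouse 1 was at 105.9 CPM, with the other B6J mice at 95.5 to 96.5 CPM. Shank3 in B6N knockout 3 was at 92.97 CPM, with the other B6N knockouts at 87.7 to 88.4 CPM.

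Camkk1 was the gene of the pathway lists whose effect differed between contrasts by a test of the difference itself. Its log2 effect of knockout against wild type in B6N was lower by 0.28 than that of B6J against transgenic mice (difference -0.28 ± 0.055, adjusted p = 0.0371, edgeR), and the call ended with the length correction and in 13 of 16 fits that left out a library. The effect in B6J knockouts against transgenic mice was higher by 0.52 than that in B6N knockouts against B6N mice (difference 0.52 ± 0.09, adjusted p = 0.00998, edgeR), and the call ended with the length correction (adjusted p = 0.145). Camkk1 averaged 98.9 ± 2.88 CPM in B6J knockouts, 99.8 ± 2.16 in B6J mice, 90.9 ± 2.05 in transgenic mice, 90.3 ± 4.66 in B6N knockouts and 99.3 ± 2.67 in B6N mice (SD, n = 4 each). These means are uncorrected for batch. The difference of 0.52 includes a batch term that rests on transgenic mouse 4 alone.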

How the results depend on the processing

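Genes and members called were recomputed under each alternative. The length correction gave 174 genes for B6N knockouts against B6N, 6 for B6J against transgenic, 143 for B6J against B6N, 55 for transgenic against B6N, 67 and 12 for B6J knockouts against transgenic and B6J mice, and 7 and 6 for the differences of effects, with 0 members called in B6N knockouts and in B6J against B6N. DESeq2 called 157 genes for B6J against transgenic, 460 and 131 for B6J knockouts against transgenic and B6J mice, 50 and 252 for the differences of effects, 138 in hippocampus RNA, 1080 in footprints and 494 for translational efficiency. It called 1 member for B6J against transgenic, 2 for B6J against B6N, 1 for the difference of knockout effects, 1 in hippocampus RNA and 5 in footprints. Without the low-count filter, 106 genes were called for B6J against transgenic, 46 for the difference of the B6N and hypomorph effects, 135 in hippocampus RNA and 38 for translational efficiency, and members numbered 1, 1 (difference of knockout effects), 1 and 4 (footprints). With only the 2 groups, 989 genes and 3 members were called for B6J against B6N and 29 genes for B6J knockouts against transgenic. Counting the repeat library as separate gave 1800 and 297 genes for B6J knockouts against transgenic and B6J mice and 757 for the difference of knockout effects, with 1 member in the first and the last. With the male B6J knockout alone, a choice made after seeing the data, 96 and 10 genes were called.

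The replicate numbers did not pair the samples of different genotypes (correlations of deviations from -0.14 to 0.14 in batch 1). With the replicate block, 513 genes were called in B6N knockouts, 6 in hippocampus RNA and 630 in footprints, where 1 member was called and Camk2b was not (adjusted p = 0.0513).

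Leaving out 1 library gave 262 to 751 genes for B6N knockouts against B6N, 16 to 196 for B6J against transgenic, 216 to 426 for B6J against B6N, 53 to 176 for transgenic against B6N, 134 to 402 and 10 to 32 for B6J knockouts against transgenic and B6J mice, 3 to 78 and 39 to 211 for the differences of effects, 0 to 10 in hippocampus RNA, 32 to 916 in footprints, 0 to 301 for translational efficiency and 10023 to 10404 for footprints against RNA. Members called were 1 to 2 in B6N knockouts, 0 to 2 in B6J against B6N, footprints and translational efficiency, 0 to 1 in B6J against transgenic, transgenic against B6N, B6J knockouts against transgenic and the difference of knockout effects, 0 in the other genotype comparisons and 6 for footprints against RNA.

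The log2 differences that changed sign were not called in either fit. With the length correction, Shank3 was -0.056 in B6N knockouts, -0.017 in B6J against transgenic and -0.039 in the difference of the B6N and hypomorph effects, where Grin2d was 0.0057 and Grin2a -0.0067; Grin2a was 0.15 and 0.12 in B6J knockouts against transgenic and B6J mice and 0.12 in the difference of knockout effects; Dlg4 was -0.0092 in transgenic against B6N. In B6J knockouts against B6J, Dlg4 was 0.012 and Grin1 0.0072 with the length correction, Dlg4 was 0.0064 by DESeq2 and 0.0061 with its size factors, and with the repeat library separate Dlg4 was 0.085, Grin1 0.10, Grin3a 0.018 and Grin2a 0.014. Grin2a was 0.018 against transgenic mice with the repeat library separate. With the male knockout alone Grin2d was 0.065 and Grin1 0.012. Dlg4 in transgenic against B6N was -0.0013 by DESeq2 and with its size factors, -0.0028 without the filter, -3.3e-06 with the block and -0.0017 with only the 2 groups. Without the filter, Shank3 was -0.0027 and Grin2a -0.0011 in B6J against transgenic, and Dlg4 -0.0013 in the difference of knockout effects. Log2 differences that changed sign when 1 library was left out had these ranges. In B6N knockouts minus B6N they were Shank3 -0.0021 to 0.051, Grin1 -0.028 to 0.015. In B6J minus transgenic they were Shank3 -0.044 to 0.048, Grin3a -0.11 to 0.0010, Camk2b -0.046 to 0.018, Grin2a -0.043 to 0.050. In B6J minus B6N they were Camk2b -0.016 to 0.0085. In transgenic minus B6N they were Dlg4 -0.027 to 0.030, Grin1 -0.029 to 0.065, Grin3a -0.078 to 0.032, Camk2b -0.021 to 0.042. In the difference of the B6N and hypomorph effects they were Grin2d -0.10 to 0.039, Shank3 -0.021 to 0.073, Grin3a -0.035 to 0.072. In B6J knockouts minus transgenic they were Grin1 -0.0077 to 0.092. In B6J knockouts minus B6J they were Dlg4 -0.030 to 0.048, Grin1 -0.058 to 0.022. In hippocampus RNA they were Dlg4 -0.0054 to 0.090, Camk2a -0.0064 to 0.16, Grin1 -0.083 to 0.050, Camk2b -0.036 to 0.16. The cause of these changes was not tested. Grin2d, with the fewest counts, is the member that depth limits most.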
